A study of Mus musculus with 30 samples.

Results

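The comparison set 2 rescue clones of the mouse embryonic stem cell (ESC) line Ainv15 against each other after doxycycline (Dox) had been withdrawn for 5 days. Chek1_R carries an shRNA against Chek1 and Ppm1g_R an shRNA against Ppm1g, and each clone makes, when Dox is present at 1 μg/ml, an extra version of the targeted mRNA that escapes its shRNA. The arrays were picked by their labels alone, 3 of Chek1_R and 3 of Ppm1g_R without Dox, which are 6 of the 30 arrays of the series. The 6 arrays of the same clones kept in Dox were used to ask whether a difference depends on Dox. Both clones share the Ainv15 background with its rtTA transactivator, the lentiviral cassette and its eGFP reporter, and culture with LIF. Each condition holds 1 shRNA under 1 rescue clone name, so the targeted gene, the shRNA and the clone cannot be told apart. The study made 3 independent clones for each rescue gene. The labels do not say whether the 3 arrays of a condition came from separate clones or cultures. The p-values therefore measure only the spread between arrays of the same condition, which may be technical. This spread was estimated over all 30 arrays of the series, not only over those compared.

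Chek1 encodes a checkpoint kinase that is switched on by stalled replication forks and DNA damage and holds back entry into mitosis by acting on Cdc25 phosphatases. Ppm1g encodes a metal-dependent serine/threonine phosphatase of the PPM family with known substrates among splicing factors and histones. Mouse ESCs held in LIF express naive pluripotency genes, and cells that leave this state pass through a formative, epiblast-like state before primitive streak and germ layer genes come on.

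The shRNA target sequences of both clones are shown first, since they are what sets the clones apart by design. They are written 5′ to 3′ as DNA in lower case, with no part marked.
Chek1_1_R: cccatgtagtagtatcacttt
Ppm1g_2_Rim: gccttgtactgtgccaaatat
Each is 21 bases long, and G and C make up 38.1% of the Chek1 sequence and 42.9% of the Ppm1g sequence. The Chek1 rescue copy leaves the target site out, and the Ppm1g rescue copy carries silent changes in it.

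On the 12 arrays of both clones, 12198 to 12898 probes each were detected (detection p under 0.05). Across the 15151 tested probes, replicate arrays correlated with r of 0.993 to 0.996 within the conditions without Dox, and arrays of the different clones with r of 0.983 to 0.987. All 7 ESC markers that were tested (Pou5f1, Nanog, Sox2, Zfp42, Utf1, Fbxo15 and Tdgf1) were detected on all 6 arrays, at normalized log2 intensities between 9.92 and 13.13.

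Each targeted mRNA was lower in its own clone. The Ppm1g probe read 10.08, 9.95 and 10.12 (normalized log2 intensity) on the arrays labelled Chek1_R without Dox and 8.61, 8.40 and 8.59 on the Ppm1g_R arrays without Dox. The groups did not overlap, and the log2 difference was 1.51 ± 0.10 (SE; limma adjusted p = 8.33e-11). With Dox the Ppm1g levels were 10.09 ± 0.09 (SD, n = 3) in Chek1_R and 9.78 ± 0.04 (SD, n = 3) in Ppm1g_R, a log2 difference of 0.31 that was below the 1.5-fold limit. The clone difference of Ppm1g was larger without Dox, by 1.20 on the log2 scale (limma adjusted p = 2.02e-06).

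The Chek1 probe read 6.08, 6.24 and 5.72 on the arrays labelled Chek1_R without Dox and 6.90, 7.12 and 6.99 on the Ppm1g_R arrays, so that Chek1_R lay below Ppm1g_R on every array. The log2 difference was -0.99 ± 0.16 (SE; limma adjusted p = 3.36e-05). A second Chek1 probe gave -0.59 (limma adjusted p = 0.0049), but was detected on only 1 of the 3 Chek1_R arrays without Dox and on 0 with Dox. Its mean in Chek1_R was 5.42 without Dox and 4.90 with Dox. With Dox the first probe was not detected on any Chek1_R array either. Its mean was 5.31 ± 0.10 (SD, n = 3) against 7.27 ± 0.02 (SD, n = 3) in Ppm1g_R, which was at least 3.23-fold higher. The Chek1 signal of the arrays labelled Chek1_R was thus lower with Dox than without, which goes against what the Dox labels would give for a probe that reads the rescue copy. The position of the probe in the transcript is not in the file, and a probe outside the rescue cDNA would see only the endogenous mRNA. The genes T, Fgf5 and Fgf8, which come on when ESCs differentiate, were higher without Dox than with it in the same clone, at 10.85 ± 0.07 against 6.41 ± 0.22, 8.20 ± 0.14 against 5.78 ± 0.26 and 11.36 ± 0.10 against 7.76 ± 0.05 (SD, n = 3 each), while Nanog was at 13.00 ± 0.12 and 12.96 ± 0.09. Whether the Dox labels of this clone are exchanged was not tested beyond these values. Since the Chek1 probe goes against them, every direction given here for Chek1_R belongs to the arrays labelled so.

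The other genes targeted in the study were measured in the same way. Aurka, a mitotic kinase, read 11.96, 11.90 and 11.96 in Chek1_R and 11.20, 11.15 and 11.18 in Ppm1g_R, and was 0.77 ± 0.08 (SE) higher in Chek1_R (limma adjusted p = 4.89e-08). It was also higher with Dox, by 0.63, and the difference between the differences was 0.14 (limma adjusted p = 0.50). Bub1b, a spindle checkpoint kinase, differed by 0.16 with a 95% interval of 0.00 to 0.33 and an adjusted p of 0.1155 in limma's fit. Ppp2r1b, a scaffold subunit of phosphatase PP2A, differed by -0.08 with an interval of -0.39 to 0.23. Neither passed the limits of 1.5-fold and an adjusted p under 0.05.

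**Figure D1:**
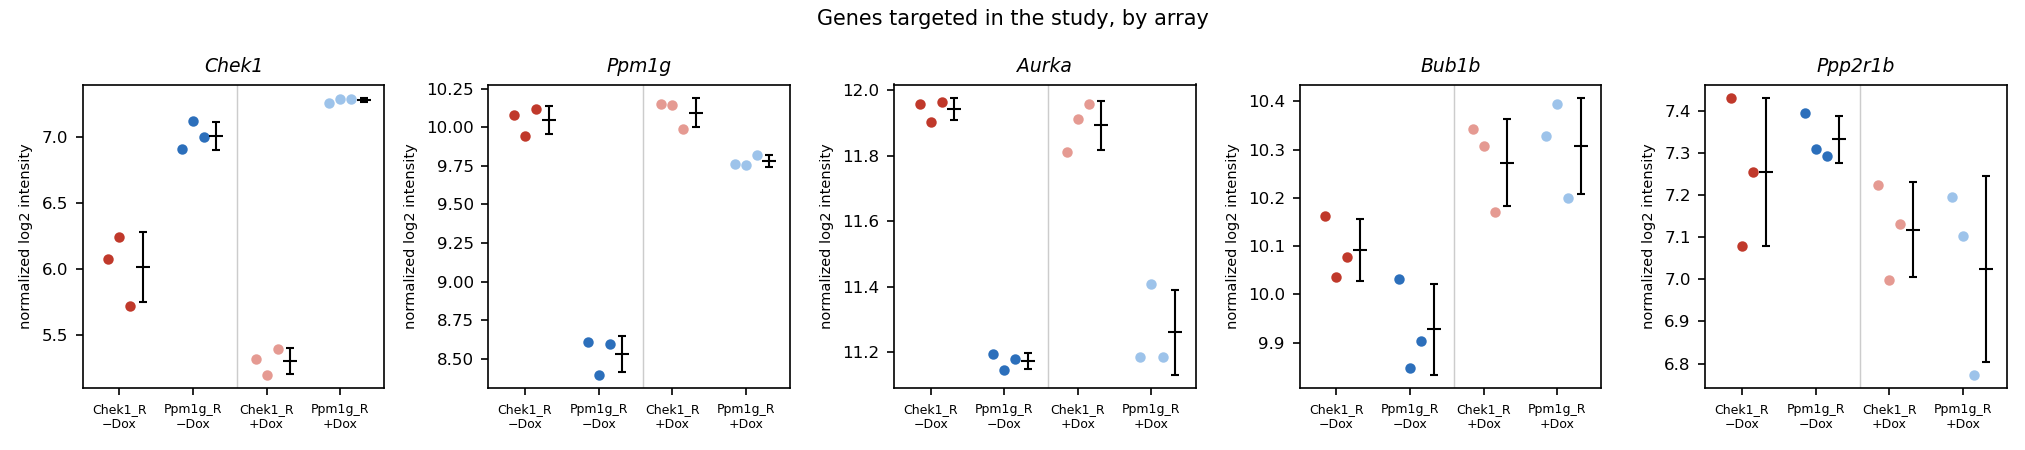
Normalized log2 intensity of the 5 genes targeted in the study (vertical axes, scaled for each gene) on the 3 arrays of each condition, with the mean and SD to the right of the points. Ppm1g is lowest in Ppm1g_R without Dox, near 8.5, and Chek1 is lower in the arrays labelled Chek1_R both without and with Dox.

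Without Dox, 1124 of the 15151 probes (7.42%) differed between the clones by at least 1.5-fold at an adjusted p under 0.05 in limma's fit. Of these, 546 (3.6%) were higher in the arrays labelled Chek1_R and 578 (3.81%) higher in Ppm1g_R. Scaling each array to its median in place of quantiles gave 785 higher and 482 lower. Counted with the brightest probe of each gene, 866 of 11177 genes passed (7.75%), 416 of them higher (3.72%) and 450 lower (4.03%). On 1113 of the 1124 probes the 3 arrays of one clone did not overlap the 3 of the other. The 1124 were selected for a difference on these same arrays, so their separation follows largely from the selection. The share without overlap over all tested probes was not counted. A total of 118 probes were detected on all 3 arrays of the higher clone and on none of the lower, so that their fold is a lower bound.

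With Dox, 1523 probes (10.1%) passed between the same clones on other arrays, 718 higher (4.74%) and 805 lower (5.31%) in Chek1_R, and by gene 1167 of 11177 (10.4%). A difference in the same direction in both states was found for 462 probes, which are 41.1% of those without Dox and 30.3% of those with Dox, and 54 probes passed in opposite directions. Across all tested probes, which are not independent of each other, the clone difference without Dox correlated with that with Dox with r = 0.491. The clone difference itself depended on Dox for 921 probes (6.08%), 486 (3.21%) more positive without Dox and 435 (2.87%) more negative, and by gene for 737 of 11177 (6.59%).

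**Figure D2:**
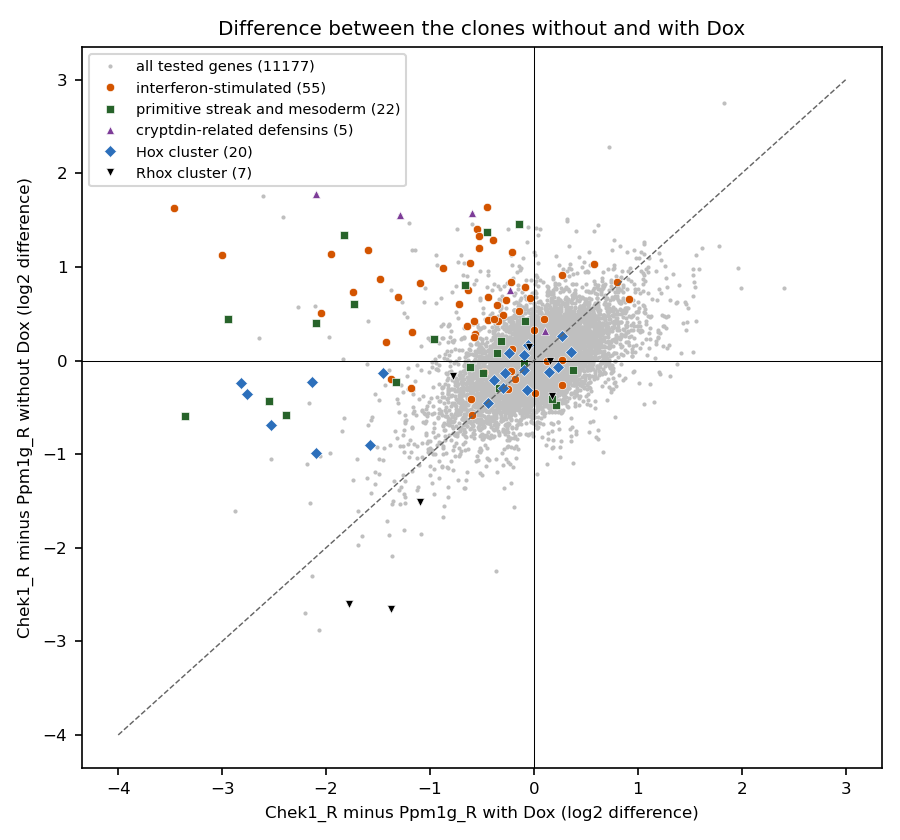
Log2 difference between Chek1_R and Ppm1g_R for each of 11177 genes, with Dox (horizontal axis) and without Dox (vertical axis), 3 arrays per condition. The dashed line marks equal differences, and coloured symbols mark 5 gene lists with the number of tested genes in brackets. Above 0 without Dox lie 44 of 55 interferon-stimulated, 5 of 5 defensin and 11 of 22 primitive streak genes. Left of 0 with Dox lie 45, 4 and 19 genes of these lists, and Rhox5, Rhox6 and Rhox9 lie to the lower left.

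The largest fitted excess in the arrays labelled Chek1_R was that of Mest, an imprinted gene expressed from the paternal allele. It read 9.94, 10.30 and 9.94 in Chek1_R and 7.39, 7.35 and 7.20 in Ppm1g_R, which is 6.72-fold (log2 difference 2.75 ± 0.13 SE, limma adjusted p = 7.67e-14). All 3 Mest probes passed. The Mest difference was present with Dox at 1.83. Akr1c18, which encodes a progesterone-metabolising hydroxysteroid dehydrogenase, read 7.04, 7.16 and 7.03 in Chek1_R and was not detected on any Ppm1g_R array, and was at least 2.70-fold higher (limma adjusted p = 7.66e-08). Its fold is a bound and was not ranked against that of Mest, since without background correction the log2 differences were 6.84 for Akr1c18 and 2.88 for Mest.

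The other 8 genes of the top 10 were Ppm1g itself, 3 cryptdin-related defensin genes (Defcr-rs7, Defcr-rs10 and AY761185), the interferon-stimulated genes Usp18 and Ifi27 (named as in the file), and LOC100044289 and LOC100048346, which have no current symbol. LOC100044289 read 12.31, 12.29 and 12.27 in Chek1_R against 10.45, 10.57 and 10.57 in Ppm1g_R.

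Among the genes lower in the arrays labelled Chek1_R, Ms4a10, of the membrane protein family that includes CD20, and 2410004A20Rik had large fitted differences and were detected in both clones. Ms4a10 read 6.05, 5.82 and 5.90 in Chek1_R and 8.86, 8.81 and 8.72 in Ppm1g_R, a log2 difference of -2.87 ± 0.10 (SE; limma adjusted p = 4.92e-16). The gene 2410004A20Rik is now called Khdc3 or Filia, an oocyte and ESC protein with known roles in genome stability. Its levels were 7.86, 7.93 and 7.93 against 10.62, 10.61 and 10.58, and the log2 difference was -2.70 ± 0.08 (SE; limma adjusted p = 8.91e-18). They were not ranked, since the values were -2.34 for Ms4a10 and -2.54 for 2410004A20Rik with an offset of 50, and -1.36 and -2.04 with an offset of 200. Both genes were lower in Chek1_R with Dox too, by log2 differences of -2.07 and -2.20.

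Rhox9 and Rhox6, homeobox genes of the X-linked Rhox cluster, were also in this group of 10. Rhox9 read 7.20, 7.21 and 7.36 against 9.86, 9.91 and 9.95. Rhox6 was not detected on the Chek1_R arrays and was at least 4.86-fold higher in Ppm1g_R. The rest of the 10 were Aoah, a lipase that inactivates bacterial lipopolysaccharide (not detected in Chek1_R, at least 4.22-fold higher in Ppm1g_R), the surface peptidase gene Dpp4, LOC100045403, Kctd12b (not detected in Chek1_R, at least 3.01-fold higher in Ppm1g_R), the bHLH repressor gene Msc and Aire, the autoimmune regulator. The clone difference of Dpp4 depended on Dox. It read 5.30, 5.38 and 5.59 in Chek1_R and 7.74, 7.76 and 7.52 in Ppm1g_R without Dox, whereas with Dox the clones differed by -0.36 on the log2 scale, and the difference of these differences was -1.89 (limma adjusted p = 4.96e-10).

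Of the gene lists examined, that of interferon-stimulated genes held the most genes past the test, and they shared a direction. Interferons act through transcription factors that bind elements of repeated GAAA blocks in the promoters of antiviral, antigen-presentation and GTPase genes. A list of such genes was drawn up after their values had been seen, so its counts are a description. Of 55 tested genes, 27 were higher in the arrays labelled Chek1_R without Dox and 0 were lower (416 of 11177 genes, 3.72%, were higher overall). At an unadjusted p under 0.05 alone, limma gave 39 higher and 5 lower genes of the list. The median log2 difference of the 55 was 0.59, against 0.00 over all tested genes. Without background correction 24 were higher and 1 was lower, and the median fell to 0.26 with an offset of 200.

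Usp18, the protease that removes the ubiquitin-like Isg15 from proteins, had a clone difference that depended on Dox. It read 10.23, 10.37 and 10.32 on the arrays labelled Chek1_R without Dox and 8.68, 8.58 and 8.78 on those of Ppm1g_R, a log2 difference of 1.63 ± 0.13 (SE; limma adjusted p = 7.19e-10). With Dox, Usp18 was not detected in Chek1_R, and Ppm1g_R, at 8.54, was at least 7.76-fold higher. The clone difference thus changed by at least 4.58 on the log2 scale at the offset used (limma adjusted p = 3.24e-16), and its fitted value was 7.01 without background correction and 2.64 with an offset of 200.

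Isg15 itself is listed in the file as LOC100038882, and was assigned by its gene number. It read 9.32, 9.24 and 9.34 against 8.46, 7.80 and 8.10, and was 1.18 ± 0.20 (SE) higher on the log2 scale (limma adjusted p = 6.40e-05). Ifit3, an antiviral protein gene, read 7.91, 7.75 and 7.81 against 6.38, 6.46 and 6.40, a log2 difference of 1.41. The interferon-inducible GTPase genes Igtp, Iigp2, Mx2, Gbp2 and Gbp3 were higher by 1.29, 1.20, 1.16, 0.76 and 0.68. Igtp did not overlap between the clones, at 9.23, 9.12 and 9.23 against 7.93, 7.94 and 7.86.

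Genes of antigen processing were part of the group. The peptide transporter genes Tap1 and Tap2 were higher by 1.03 and 1.33, the immunoproteasome genes Psmb9, Psmb10 and Psmb8 by 0.91, 0.68 and 0.61, and the class I-like genes H2-T23 and H2-T10 by 0.84 and 0.78. Stat2 and Irf9, transcription factors of the interferon response, gave log2 differences of 0.53 and 0.28 and did not pass the fold limit, and the receptor gene Ifnar2 gave 0.00.

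The direction of the group was opposite with Dox. There, 20 of the 55 genes were lower in Chek1_R and 2 higher (background with Dox 5.44% lower and 5% higher), and the median log2 difference was -0.45. Of the 27 genes higher without Dox, 12 were lower with Dox, 2 (Dhx58 and Cxcl10) were higher in both states, and 24 had a clone difference that depended on Dox. Of all 1124 probes changed without Dox, 327 depended on Dox and 54 passed in the opposite direction with Dox. The 27 were selected on the arrays without Dox, which the difference between Dox states also uses, so the selection favours the 24. Over the list, 38 of 55 genes had a more positive clone difference without Dox and 0 a more negative one (background 3.41% and 3.19%). D12Ertd647e, now called Ifi27, gave a log2 difference of 1.13 without Dox and was lower with Dox, where Chek1_R was at 6.17 ± 0.18 (SD, n = 3) and Ppm1g_R at 9.17 ± 0.14 (SD, n = 3).

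**Figure D3:**
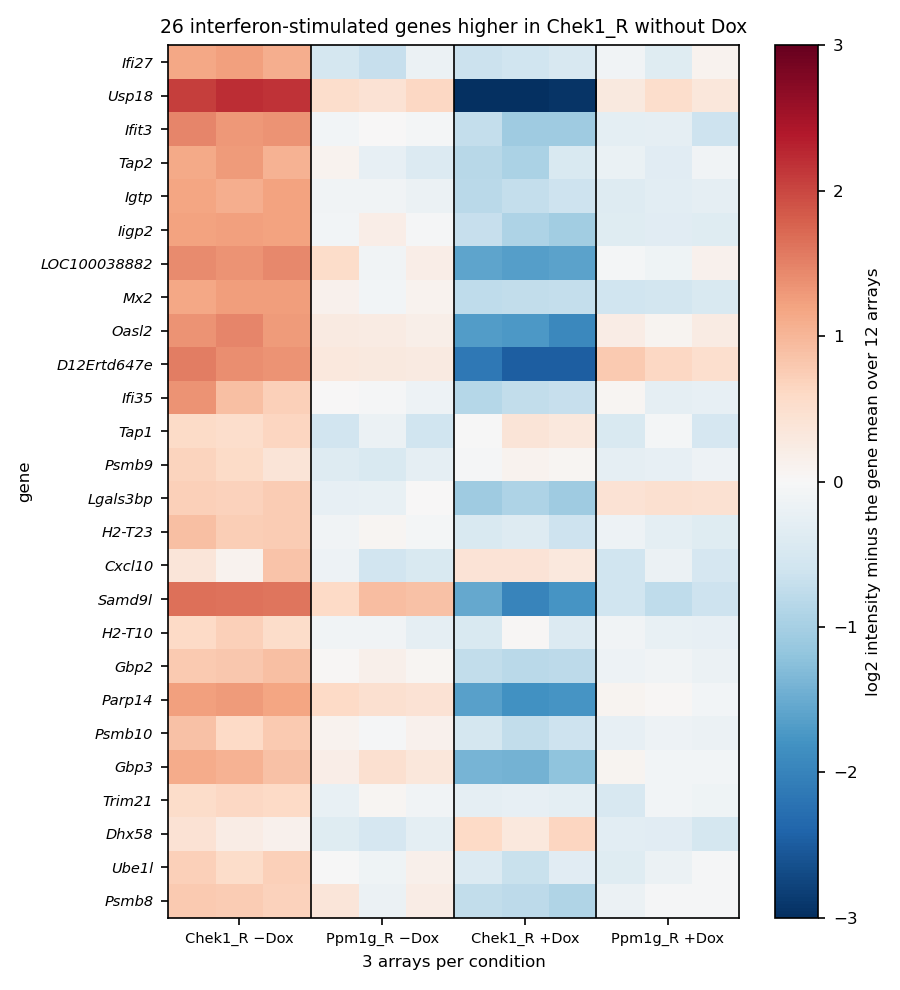
Level of 26 of the 27 interferon-stimulated genes higher in Chek1_R without Dox (rows) on the 3 arrays of each of 4 conditions (columns), as log2 intensity minus the mean of that gene over the 12 arrays. The arrays labelled Chek1_R without Dox are the highest for most genes, and with Dox the same clone is the lowest for most.

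The promoters of Isg15, Ifit3 and Igtp are printed to show the sequence these genes share. Each window runs from 250 bases before to 50 bases after the start of the gene, is given 5′ to 3′ on the strand of the gene from RefSeq on GRCm38.p6, and has every match to GAAANNGAAA on either strand in capitals.
Isg15, chr4:156200769-156201068, minus strand: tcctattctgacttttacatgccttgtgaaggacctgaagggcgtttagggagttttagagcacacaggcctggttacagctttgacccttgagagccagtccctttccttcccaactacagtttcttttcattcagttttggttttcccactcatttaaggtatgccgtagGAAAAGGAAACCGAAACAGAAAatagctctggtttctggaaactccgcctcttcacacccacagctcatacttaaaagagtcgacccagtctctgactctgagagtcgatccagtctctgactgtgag
Ifit3, chr19:34583279-34583578, plus strand: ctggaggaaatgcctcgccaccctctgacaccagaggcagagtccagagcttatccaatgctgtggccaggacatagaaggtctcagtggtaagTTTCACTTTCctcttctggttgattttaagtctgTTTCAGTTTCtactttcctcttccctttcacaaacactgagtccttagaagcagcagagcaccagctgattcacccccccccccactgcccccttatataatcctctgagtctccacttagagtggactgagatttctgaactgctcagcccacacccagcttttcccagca
Igtp, chr11:58199306-58199605, plus strand: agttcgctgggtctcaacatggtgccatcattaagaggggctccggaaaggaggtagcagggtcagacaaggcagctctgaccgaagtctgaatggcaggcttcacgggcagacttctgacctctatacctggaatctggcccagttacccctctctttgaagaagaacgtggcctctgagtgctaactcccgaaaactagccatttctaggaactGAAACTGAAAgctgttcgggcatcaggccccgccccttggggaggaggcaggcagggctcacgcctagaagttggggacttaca
The Isg15 window held 3 overlapping matches, that of Ifit3 2 and that of Igtp 1. The motif was present in 3.44% of 32851 promoter windows and for 3.99% of 27025 genes with a window. Of the 41 interferon-stimulated genes that were tested and have a window, 19 held it, which were 8 of the 16 higher in Chek1_R without Dox and 11 of the 25 that did not pass. A match is a description of the letters and not a measured binding site.

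Cryptdin-related defensin genes, whose family encodes antimicrobial peptides of intestinal Paneth cells, behaved alike. Of 5 tested, 4 were higher in the arrays labelled Chek1_R without Dox and 3 were lower with Dox. The shares over all genes were 3.72% and 5.44%. Defcr-rs7, now called Defa31, read 10.69, 10.34 and 10.53 against 8.79, 8.65 and 8.77 without Dox. With Dox it was not detected in Chek1_R and was at least 3.39-fold higher in Ppm1g_R, at 7.34, so the clone difference changed by at least 3.55 on the log2 scale (limma adjusted p = 2.78e-13). The fitted change was 4.95 without background correction and 2.08 with an offset of 200. AY761185, Defcr-rs10 and Defcr26 were higher without Dox by 1.55, 1.58 and 0.76, and without background correction AY761185 gave 1.63 and did not pass (limma adjusted p = 0.16). Members of this family are near-identical in sequence and may share signal.

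Of 22 tested genes of the primitive streak and mesoderm, 5 were higher in Chek1_R without Dox, 1 was lower and 16 did not pass, with a median log2 difference of 0.03. Over all genes 3.72% were higher and 4.03% lower. At an unadjusted p under 0.05 alone, limma gave 10 higher and 6 lower, and 11 of the 22 differences were negative. Fgf8, a growth factor of the streak, read 11.45, 11.26 and 11.38 in the arrays labelled Chek1_R and 9.99, 10.02 and 10.05 in Ppm1g_R without Dox, a log2 difference of 1.34 ± 0.07 (SE; limma adjusted p = 5.79e-13). Mesp1, a regulator of early mesoderm, read 7.21, 7.49 and 7.43 against 5.89, 5.90 and 6.21. Lhx1, a LIM homeobox gene of the anterior streak, read 7.34, 7.38 and 7.28 against 6.22, 5.75 and 5.66. Gsc and Sp5, an organiser gene and a Wnt target, were higher by 0.81 and 0.61. Cdx2, a caudal homeobox gene, was lower by a narrow margin (9.94, 9.86 and 9.92 against 10.58, 10.50 and 10.43), with a log2 difference of -0.60. It did not pass without background correction (-0.61, limma adjusted p = 0.087), with median scaling (-0.48), with offsets of 50 (-0.58) and 200 (-0.51) or in the fit of 18 arrays (-0.58). The Cdx2 call was also lost without Chek1_R replicate 2 (-0.57) or Ppm1g_R replicate 1 (-0.56).

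With Dox, 0 of the 22 were higher in Chek1_R and 11 were lower (5% and 5.44% over all genes). The clone difference was more positive without Dox for 12 and more negative for 1 (3.41% and 3.19% over all genes). T (Brachyury), the founding T-box gene, shows this. Without Dox it read 10.94, 10.79 and 10.84 in Chek1_R and 10.47, 10.41 and 10.34 in Ppm1g_R, a log2 difference of 0.45 below the fold limit. With Dox T was at 6.41 ± 0.22 (SD, n = 3) in Chek1_R and 9.36 ± 0.05 (SD, n = 3) in Ppm1g_R, a difference of -2.95. Eomes and Mixl1, further streak regulators, differed without Dox by -0.06 (95% interval -0.29 to 0.17) and 0.08 (-0.14 to 0.30).

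Genes of the formative and primed epiblast were mixed. Fgf5, a marker of the epiblast that has left the naive state, read 8.29, 8.04 and 8.27 in Chek1_R and 6.83, 6.50 and 6.89 in Ppm1g_R, a log2 difference of 1.46 ± 0.13 (SE; limma adjusted p = 1.01e-08). With Dox the log2 difference was -0.60. Without background correction the log2 differences of Fgf5, Lhx1, LOC100048346 and Zic2 were wider, at 1.61, 1.80, 1.62 and 1.11, but their limma adjusted p rose to 0.066, 0.16, 0.10 and 0.065, which ended the calls. Otx2, a homeobox gene of the epiblast, was higher in Chek1_R both without (0.59) and with Dox (0.69). Zic2 was higher by 0.64, which also did not pass with an offset of 50 (0.39). Etv4, an ETS factor downstream of FGF, was lower, with a log2 difference of -0.86. The Zic2 difference was 0.50 without Chek1_R replicate 3 and 0.57 without Ppm1g_R replicate 2, which ended its call. Of the 10 tested genes of this list 3 were higher and 1 was lower (3.72% and 4.03% over all genes).

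**Figure D4:**
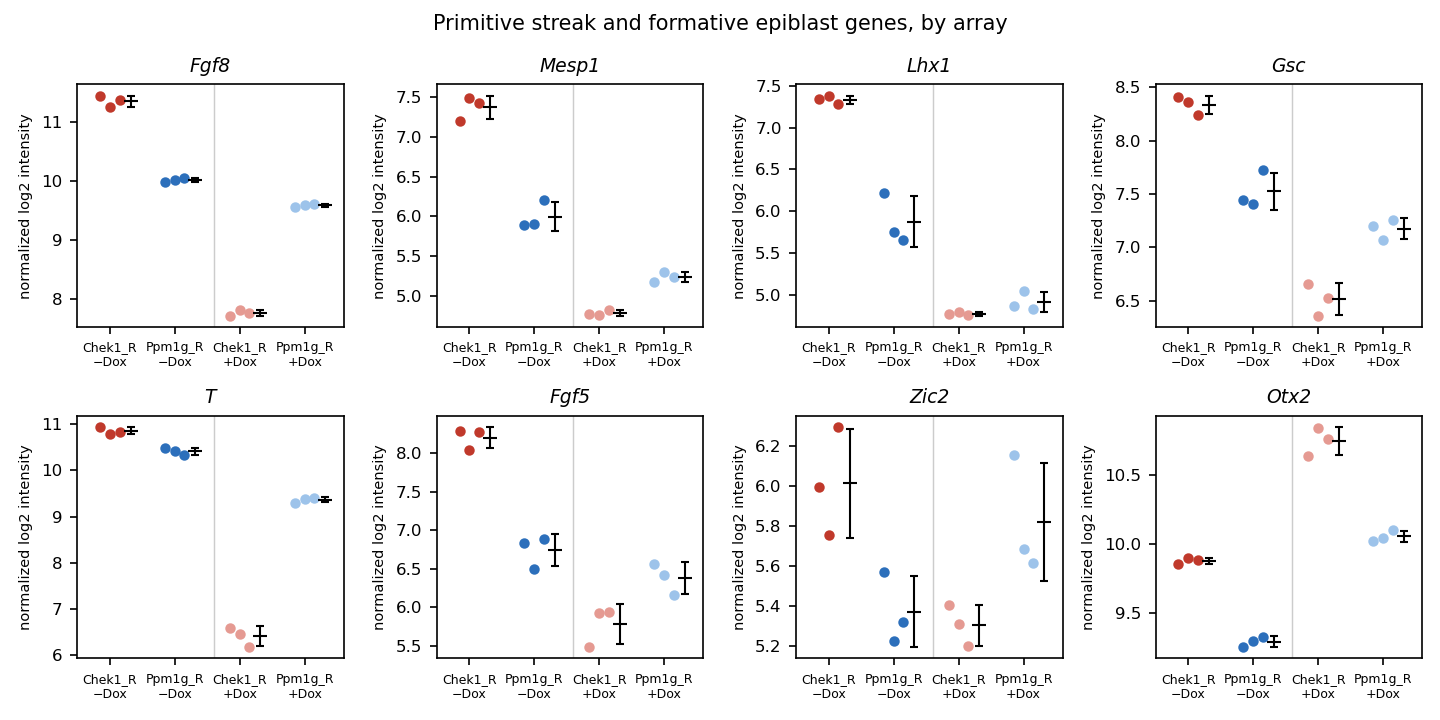
Normalized log2 intensity (vertical axes, scaled for each gene) of 5 streak genes and 3 formative epiblast genes on the 3 arrays of each condition, with the mean and SD to the right of the points. Fgf8, Mesp1, Lhx1 and Gsc are highest in the arrays labelled Chek1_R without Dox, and T is near 6.4 in Chek1_R with Dox and above 9 in the other conditions.

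Of 13 naive and of 13 core pluripotency genes tested, 1 each passed, which is 7.69% and near the 7.75% over all genes. Tbx3 was the naive gene to pass, at 8.52, 8.55 and 8.61 in the arrays labelled Chek1_R against 9.53, 9.45 and 9.46 in Ppm1g_R, and 12 of the 13 naive differences were negative (median -0.19). Of its 2 tested probes only the brighter passed. Klf5 and Zfp42 gave log2 differences of -0.57 and -0.54, below the fold limit. The core gene L1td1 passed at -0.68, and not with median scaling. At an unadjusted p under 0.05 alone, limma gave 0 higher and 8 lower genes in each of these lists. Nanog differed by 0.01, Sox2 by -0.05 and Pou5f1 by -0.17 (limma adjusted p = 0.15), with a 95% interval for Pou5f1 of -0.35 to 0.01.

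Feedback genes of the BMP, FGF and Nodal pathways were lower in Chek1_R where they passed. Of 21 tested, 6 were lower and 0 higher in limma's fit (4.03% of all genes were lower), with 13 lower and 1 higher at an unadjusted p under 0.05 alone, and the median log2 difference was -0.34. They were Egr1, an immediate-early gene of ERK signalling (-0.95), Id2 and Id1, BMP-induced inhibitors of bHLH factors (-0.93 and -0.67), Lefty2, a Nodal inhibitor (-0.75), Spry4, an FGF feedback inhibitor (-0.72) and Smad6, a BMP feedback inhibitor (-0.65). Id1 read 9.83, 9.79 and 9.90 in the arrays labelled Chek1_R and 10.57, 10.52 and 10.43 in Ppm1g_R, and with Dox it differed by 0.06. Egr1 was lower with Dox as well, at -0.98.

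Hox cluster genes, which pattern the body axis, were listed after their values had been seen. Of 20 tested, Hoxd10, Hoxd4 and Hoxd8 were lower in the arrays labelled Chek1_R without Dox, by log2 differences of -0.99, -0.91 and -0.69. Over all genes 4.03% were lower without Dox and 5.44% with Dox. With Dox, 7 were lower, among them Hoxc9 at -2.82 and Hoxc6, which was not detected in Chek1_R and at least 6.29-fold higher in Ppm1g_R. Without Dox these differed by -0.24 and -0.36. The clone difference was more positive without Dox for 7 of the 20 and more negative for 0 (3.41% and 3.19% over all genes).

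Of 7 tested reproductive homeobox genes of the Rhox cluster, 3 were lower in Chek1_R without Dox and 4 with Dox, and 0 were higher without Dox. The shares of all genes that were lower were 4.03% without Dox and 5.44% with Dox. At an unadjusted p under 0.05 alone, limma gave 4 lower and 0 higher without Dox. Rhox5, the founding member, read 11.01, 11.07 and 10.99 in the arrays labelled Chek1_R against 12.50, 12.54 and 12.56 without Dox, a log2 difference of -1.51 ± 0.06 (SE; limma adjusted p = 3.31e-15), and differed by -1.10 with Dox. Rhox5, Rhox6 and Rhox9 were the 3 to pass without Dox, and Rhox6 and Rhox9 had larger negative differences without Dox than with it. Of 17 germline genes 2 were higher and 3, the Rhox genes, were lower (3.72% and 4.03% over all genes). The 2 were the meiotic helicase gene Mov10l1, not detected in Ppm1g_R and at least 1.71-fold higher, and Dmrtc2 at 0.75.

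Imprinted genes other than Mest were divided. Igf2, the fetal growth factor, read 14.40, 14.32 and 14.28 in the arrays labelled Chek1_R against 14.91, 15.19 and 15.15 in Ppm1g_R. The log2 difference was -0.75 (limma adjusted p = 7.66e-08), and scaling to the median gave -0.22 and ended the call. Slc22a18, an organic cation transporter gene, was higher by 0.79 on 1 of its 2 tested probes, and Slc38a4, an amino acid transporter gene, differed by -0.73. Of 20 tested imprinted genes 2 were higher and 2 lower (3.72% and 4.03% over all genes).

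Markers of other lineages were lower where they passed, with few exceptions. Among 10 tested trophoblast genes Gata2, Gata3 and Cdx2 were lower and 0 higher. For these lists the shares over all genes were 4.03% lower and 3.72% higher. Gata2 read 7.16, 6.90 and 6.80 against 8.27, 8.40 and 8.24 (log2 difference -1.35 ± 0.12 SE, limma adjusted p = 7.34e-09), and Gata3 differed by -1.05. Among 16 endoderm genes, the basement membrane genes Col4a1 (-1.06), Lamb1-1 (-0.88) and Col4a2 (-0.76) were lower, and the receptor gene Pdgfra was higher by 1.16 (7.72, 7.78 and 7.63 against 6.42, 6.78 and 6.43). Of 5 neural and ectoderm genes Krt14, a keratin gene, was lower, with a log2 difference of -1.21, and Neurod1 and Neurog2 did not pass.

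Fibroblast feeder markers were examined because the clones are maintained on embryonic fibroblasts, although the study describes the arrays as made without feeders. Of 15 tested, Col1a1, Pdgfrb, Mmp2 and Dcn were higher in the arrays labelled Chek1_R by 0.76, 0.66, 0.62 and 0.59, and Col3a1 and Tagln were lower. Over all genes 3.72% were higher and 4.03% lower. Without Chek1_R replicate 1 the Col1a1 difference was 0.64 and did not pass, and Col3a1 did not pass without background correction. The summed linear intensity of the 15 was 8870 to 9272 in Chek1_R and 10550 to 11336 in Ppm1g_R. Of the 15, 3 were undetected on all Chek1_R arrays and 2 on all Ppm1g_R arrays, and Col3a1 was among the first, so that it was at least 1.37-fold higher in Ppm1g_R. The part of feeder RNA in the differences between the clones was not tested. Of 30 extracellular matrix and adhesion genes 3 were higher, among them Col6a1 (0.93) and Zeb1 (0.85), and 3 were lower.

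Targets of p53, which is stabilised by DNA damage, gave 4 higher and 1 lower of 27 tested (3.72% and 4.03% over all genes). Plk3, a polo-like kinase gene, read 8.24, 8.37 and 8.08 in the arrays labelled Chek1_R against 9.35, 9.31 and 9.35 in Ppm1g_R, a log2 difference of -1.10 ± 0.07 (SE; limma adjusted p = 1.57e-11). Ddb2, a nucleotide excision repair gene, was higher by 0.73, Sesn1, a stress-induced regulator of growth signalling, by 0.71, and Bbc3, which encodes the apoptosis inducer Puma, by 0.65. The fourth, Tap1, is also an interferon-stimulated gene. For Ddb2, Sesn1 and Bbc3 not every tested probe passed. The median over the list was 0.03.

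Amino acid stress genes under ATF4 gave 3 lower and 0 higher of 25 (4.03% and 3.72% over all genes). These were the transporter genes Slc7a3 (-0.93, on 1 of 2 probes) and Slc3a2 (-0.78) and Chac1, which degrades glutathione (-0.74). Chac1 read 8.16, 8.34 and 8.47 against 9.05, 9.07 and 9.06.

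Of the listed genes, 4.55% of checkpoint, 3.23% of replication and 4.76% of mitosis genes passed, which is 1 gene in each list, against 7.75% of all genes. These lists leave out Chek1 and Aurka, which were counted with the targeted genes and passed at -0.99 and 0.77. Of 22 DNA damage checkpoint genes only Wee1, the kinase that restrains mitotic entry, passed, at -0.75, and it was detected on 1 of 3 Chek1_R arrays and did not pass without background correction. Brca1 gave -0.57 (limma adjusted p = 0.087), and Cdc25c, a phosphatase that Chek1 restrains, 0.57, just below the fold limit, which it passed with median scaling (0.64) and without background correction (0.60). Of 31 replication genes Lig1, which joins Okazaki fragments, was higher by 0.59 on 3 of 4 probes, and at 0.57 it missed the limit of 1.5-fold without Chek1_R replicate 3 or Ppm1g_R replicate 2. Pcna and Mcm7 gave -0.43 and 0.39. Of 21 mitosis genes Pttg1, which encodes securin, was higher by 0.99 (8.22, 8.03 and 7.93 against 6.91, 7.10 and 7.21), and Cdca8 and Espl1 gave 0.42 and 0.38. For mitosis, limma gave 12 higher and 0 lower at an unadjusted p under 0.05 alone, and the list median was 0.14. The higher and lower counts were 8 and 4 for replication and 3 and 4 for checkpoint genes.

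Among 11 PP2A subunits, 13 PPM phosphatases and 24 splicing factors, 0 passed in limma's fit at this threshold, with medians of 0.05, 0.13 and 0.00. The 13 do not include Ppm1g itself, which was counted with the targeted genes and passed at 1.51. With an unadjusted p under 0.05 as the only limit, limma called 4 PP2A subunits, 7 PPM phosphatases and 8 splicing factors. The members with the widest differences were Ppp2r5d (0.41), Ppp2r2c (-0.37) and Ppp2r1a (0.24) of PP2A, Ppm1h (-0.56), Ppm1f (0.52) and Ppm1j (0.35) of the PPM family, and Sfrs3 (-0.38), Sf3b1 (-0.34) and U2af2 (-0.25) of the splicing factors. Some were past the adjusted p alone, such as Ppm1f (limma adjusted p = 1.10e-06), but not the fold limit. With median scaling Ppm1f was at 0.64 and passed. With Dox, Ppm1f was 0.98 higher in Chek1_R.

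Housekeeping groups were set beside the 7.75% of all genes that passed. Of 25 cytosolic ribosomal protein genes and 20 cholesterol synthesis genes, 0 passed at both limits in limma's fit, against 9 and 10 at an unadjusted p under 0.05 alone, and Rpl22 (0.52), Rps24 (0.40), Rps14 (-0.39), Idi1 (-0.64) and Mvd (0.55) were among the most distant members. With median scaling Rpl22 (0.68), Rps24 (0.77) and Mvd (0.64) passed, and the median of the ribosomal genes moved from 0.06 to 0.45. Of 30 glycolysis and hypoxia genes 2 passed (6.67%), of which the aldolase gene Aldoc was higher by 0.61 and Mxi1, a Myc antagonist gene, lower (log2 difference -0.74), and Tpi1 gave 0.54, or 0.78 with median scaling, which passed. Aldoc fell short of the fold limit without Chek1_R replicate 2 (0.58), Ppm1g_R replicate 1 (0.55) or Ppm1g_R replicate 3 (0.58). Of 29 respiratory chain genes only Cycs passed, at -0.68 on 1 of its 2 tested probes, and Atp5a1 and Ndufab1 gave -0.42 and -0.47. The Cycs call was lost without Chek1_R replicate 1 (-0.63) or Ppm1g_R replicate 3 (-0.46).

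Chromatin genes were lower where they passed. Dnmt3l, a cofactor of de novo DNA methylation, read 11.72, 11.64 and 11.76 in the arrays labelled Chek1_R against 12.67, 12.68 and 12.66 in Ppm1g_R (log2 difference -0.97 ± 0.07 SE, limma adjusted p = 4.19e-10). The Polycomb genes Rnf2 (-0.69) and Eed (-0.62, not with median scaling) completed the 3 of 18 that were lower, against 4.03% of all genes. In this list 0 were higher. Without Chek1_R replicate 1, Rnf2 (-0.57) and Eed (-0.52) did not pass. Of 25 histone genes 2 passed, which is 8% and near the 7.75% over all genes. Both Hist1h2bc (-0.69, not with median scaling) and Hist2h2aa1 (-0.65) were lower, and Hist1h1c gave -0.41. Hist2h2aa1 did not pass without Chek1_R replicate 2 (-0.57). Of the 2-cell stage genes tested, Tcstv3 was lower (-0.61, not with median scaling) and Tcstv1 gave -0.46. Tcstv3 did not pass without Chek1_R replicate 1 (-0.55), Chek1_R replicate 3 (-0.52) or Ppm1g_R replicate 3 (-0.58).

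**Figure D5:**
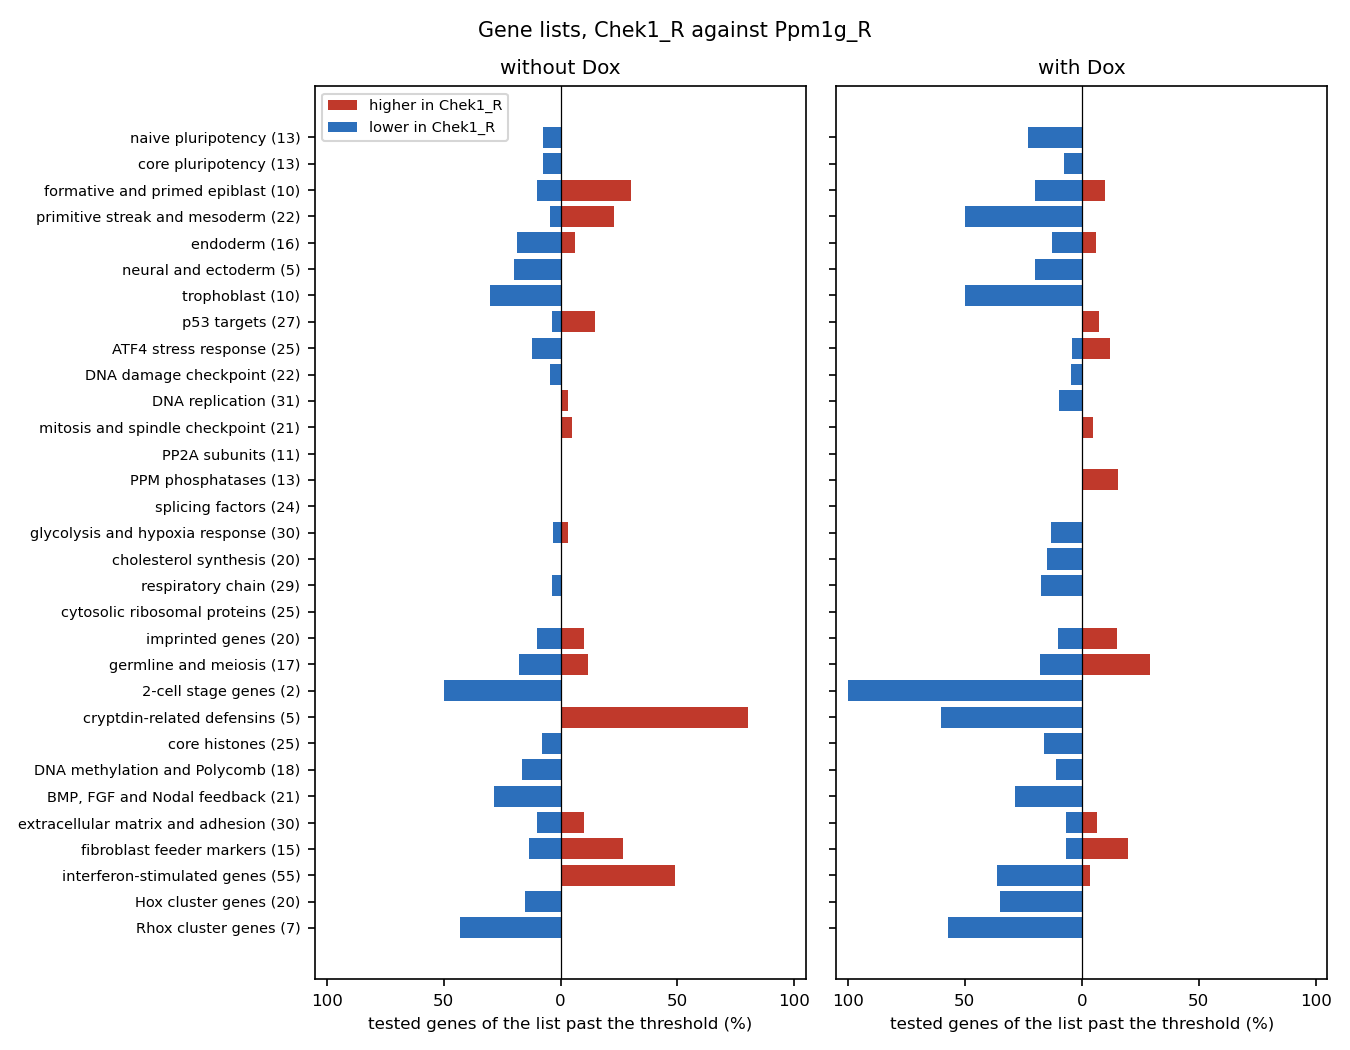
Share of the tested genes of each list (number tested in brackets) that passed the test in the comparison of Chek1_R with Ppm1g_R without Dox (left) and with Dox (right), with genes higher in Chek1_R to the right of 0 and lower to the left. The longest bars to the right without Dox belong to the defensins, 4 of 5, and the interferon-stimulated genes, 27 of 55. With Dox the larger bars of both lists point to the left, at 3 of 5 and 20 of 55.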

How the data were processed

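Total RNA was read on 30 arrays (10 conditions of 3) of Illumina MouseWG-8 V2 BeadChips. Of these, 12 are described. The authors deposited intensities per probe that were background-subtracted but not normalized, each with its detection p-value. The submitters' processing notes name lumi, with no version. In the deposited table a spreadsheet had turned 46 detection p-value cells of Ppm1g_R without Dox replicate 2 into dates, of which 28 were converted back and 18 were taken from the nearest intensity. It had also turned 31 symbols into dates, which were left as they were.

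Intensities of the 25697 probes were corrected and quantile-normalized over the 30 arrays with neqc (offset 16) of limma 3.58.1 in R 4.3.3, giving log2 values. Testing took in the probes detected (p under 0.05) on 3 or more of the 30 arrays (15151 probes of 11177 genes). A linear model of the 10 condition means was fitted with lmFit and eBayes, and p-values were adjusted by Benjamini-Hochberg over all tested probes. To pass, a probe needed a 1.5-fold difference or more and an adjusted p below 0.05, and the brightest probe stood for its gene. The contrasts were Chek1_R minus Ppm1g_R without Dox, the same with Dox, and their difference. The offset draws low values together, so folds of dim probes are understated. A probe undetected on all arrays of a condition was given a lower bound, from the mean of the higher condition and the lowest detected signal of each array.

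Named genes were the targeted genes, the 10 largest differences in each direction without overlap between arrays, the 3 largest per list, and the 5 largest differences between Dox states in each direction. Other list members were named after their values were seen. The members and lists were chosen with earlier results of these data known, and the interferon, Hox and Rhox lists after their values were seen. Symbols are those of the table, and 8771 tested genes have a current symbol, 1905 match as a synonym and 63 by gene ID in RefSeq (GRCm38.p6). Arrays with the same replicate number in the clones without Dox had deviations correlated at r of -0.0208 to 0.167, so numbers were not taken to pair arrays. The precision is limited by 3 arrays per condition. The script was tested on simulated data. Alternatives changed the background correction, scaling, offset, filter, fold limit, arrays fitted, block and test. Single genes of 2 lists are counted but not reported here.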

Additional observations from a re-analysis of the deposited data

Results flagged for a closer look

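The clone difference depended on Dox, by the interaction term of limma's fit, for 921 probes. Large positive fitted values, on the log2 scale, were 4.37 for LOC100044289 and 4.13 for D12Ertd647e, which were detected in all 4 conditions, and 5.09 for Usp18, 3.95 for LOC100048346 and 3.88 for Defcr-rs7, which were not detected in Chek1_R with Dox. For the last 3 the change was at least 4.58, 3.34 and 3.55, and the 5 were not ranked, since with an offset of 200 LOC100044289 gave 3.16 and Usp18 2.64, and without background correction LOC100048346 gave 6.71. Large negative values were -1.89 for Dpp4, -1.64 for Col9a2, -1.64 for Tnfrsf13c, -1.60 for Syt4 and -1.53 for Acta1. Tnfrsf13c was not detected in Ppm1g_R in either state, and without background correction its value was -1.54 and did not pass (limma adjusted p = 0.064). By list, the difference was more positive without Dox for 38 of 55 interferon-stimulated genes, 12 of 22 primitive streak and mesoderm genes and 7 of 20 Hox genes. The share over all genes was 3.41%. No group of arrays was large enough to look for single outlying arrays.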

How the results depend on the processing

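Counts depended on the offset and on the fold limit. The counts of probes without Dox, with Dox and for the difference between both (1124, 1523 and 921) were 644, 917 and 589 with an offset of 50, 222, 296 and 219 with an offset of 200, 204, 344 and 260 at 2-fold, and 4724, 5226 and 2020 with no fold limit. Genes of the first 29 lists past the test without Dox (71) numbered 24 with an offset of 200, 20 at 2-fold and 225 with no fold limit. Interferon-stimulated genes higher without Dox (27) numbered 12 with an offset of 200 and 12 at 2-fold, those lower with Dox (20) numbered 10, 13 and, with no fold limit, 35, and those more positive without Dox (38) numbered 23 with an offset of 200. Streak genes lower with Dox (11) numbered 7 with an offset of 200. Chek1 did not pass without Dox with an offset of 200 (-0.33) or at 2-fold (-0.99), nor did its difference between Dox states (0.27 and 0.98), nor Aurka at 2-fold (0.77), and Ppm1g with Dox passed with no fold limit (0.31). An offset changes the fitted values themselves, and a fold limit only which of them pass. How much of these changes came from dim probes was not tested.

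Leaving out each array in turn gave 1067 to 1300 probes without Dox, 1458 to 1606 with Dox and 848 to 989 for the difference, 63 to 77 list genes, 26 to 28 interferon genes higher without Dox, 19 to 21 lower with Dox and 36 to 38 more positive, and 9 to 11 and 12 to 14 streak genes. Chek1 gave -1.10 to -0.84, -2.01 to -1.91 and 0.85 to 1.12, Ppm1g 1.45 to 1.56, 0.29 to 0.37 and 1.13 to 1.25, Bub1b 0.13 to 0.22, Ppp2r1b -0.17 to 0.01 and Aurka 0.76 to 0.79. With the replicate number as a block the counts were 1122, 1523 and 905. No called value reversed. Of 2020 comparisons of single named genes, 1847 kept their side of the threshold, 122 lost the call and 51 gained one. Genes below the threshold could change sign and still count as kept, as Rps14 did with median scaling (-0.39 and 0.22). With no fold limit, the methods' t-test gave 4949 probes without Dox unadjusted and 2016 after adjustment. With adjustment and the 1.5-fold limit it gave 396 probes higher and 400 lower. It gave 25 interferon-stimulated genes higher and 0 lower without Dox, and wherever a list gave 0 genes in a direction without Dox it also gave 0. It ended the calls of 9 named genes (Zic2, Cycs, Wee1, Rnf2, Col1a1, Col3a1, Slc22a18, Tcstv3 and Hist1h2bc). An offset of 50 also ended 9 (Zic2, Cycs, Wee1, Rnf2, Col3a1, Tcstv3, Cdx2, Hist2h2aa1 and Tnfrsf13c), and the fit of 18 arrays 3 (Cycs, Lig1 and Cdx2).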
